A study of Mus musculus with 4 samples.

Results

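The 9 genes described here, Tcf7, Lef1, Satb1, Klf2, Ccr7, S1pr1, Il7r, Bach2 and Foxp1, mark naive and recirculating lymphocytes. They were taken by symbol from the 32285 genes of the deposited single-cell count files, by a rule that names the genes and uses no threshold on their values. Their levels were followed across 10 lymphoid cell classes and 4 libraries of CD45+ cells (leukocytes) from neonatal mouse hearts. The series concerns the immune checkpoint receptor PD1 (gene Pdcd1) in the heart of the newborn mouse after injury. The groups were PD1 knockout (-/-) after myocardial infarction (KO infarct), PD1 heterozygous (+/-) after infarction (Het infarct), PD1 knockout after sham surgery (KO sham) and PD1 heterozygous after sham surgery (Het sham). All mice were C57BL/6, were operated on at postnatal day 2 and were sampled 7 days later. The controls thus carry 1 disrupted Pdcd1 copy, and no wild-type group is among these samples. Hearts were taken without the atria and digested with enzymes, red cells were lysed, and live CD45+ cells were sorted and loaded on a droplet system that tags the 3' end of each RNA molecule. There was 1 library per group, and how many hearts went into each is not given in the sources used here.

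Naive lymphocytes move between blood and lymph nodes, and a linked set of transcription factors and surface receptors keeps them quiescent and mobile. TCF1 (gene Tcf7) and LEF1 are related DNA-binding factors that set up T cell identity in the thymus and stay on in naive and memory-like T cells, SATB1 organises chromatin in developing T cells, and FOXP1 and BACH2 restrain activation and effector genes in T cells and act in B cell development. KLF2 drives the homing programme, including the gene for S1PR1, the sphingosine-1-phosphate receptor that lets lymphocytes leave tissues for lymph and blood. CCR7 is the chemokine receptor for entry into lymph nodes, and IL7R is the receptor chain for the survival cytokine IL-7. Activated and effector T cells are known to switch most of these genes down.

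The libraries held 52701847 to 72002420 UMIs (unique molecular identifiers, each standing for 1 captured RNA molecule) in 6157 to 8379 barcodes, of which 5074 to 7104 were kept as cells. From these, 1376 cells of the KO infarct, 1243 of the Het infarct, 1515 of the KO sham and 1558 of the Het sham library entered the lymphoid classes, which were set by marker genes that include none of the 9. Pdcd1 does not check the labels: it gave 110 UMIs per 1000000 UMIs in the remaining T cells of the KO infarct library, against 12 in the Het infarct library, and a 3' tag need not lie in the deleted part. In the KO infarct library 1 kept cell held a UMI of a Y-linked gene, against 3058 cells of the Het infarct, 3038 of the KO sham and 2187 of the Het sham library, so the KO infarct pool was of a single sex by these genes while the other pools held cells with and without Y-linked UMIs. Any pair of libraries shared 7 to 16 barcodes. With 1 library per group there is no replicate check of any difference below: intervals cover counting error only and no p-value is given. Neither genotype nor surgery can be told apart from the pool of animals, nor, where the KO infarct library is compared, from the sex of its pool.

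The genes lie on several chromosomes of the GRCm38 build, as annotated by GENCODE M21. The transcription factor genes are Tcf7 (chr11:52252371-52283014, minus strand), Lef1 (chr3:131110471-131224356, plus strand), Satb1 (chr17:51736187-51833290, minus strand), Bach2 (chr4:32238804-32586108, plus strand), Foxp1 (chr6:98925338-99522721, minus strand) and Klf2 (chr8:72319033-72321656, plus strand). The receptor genes are Ccr7 (chr11:99144196-99155077, minus strand), S1pr1 (chr3:115710433-115715072, minus strand) and Il7r (chr15:9505788-9530176, minus strand).

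The promoter windows were searched for core motifs of the families of TCF1, LEF1 and KLF2 (TCF/LEF and KLF). FOXO and ETS motifs were searched as well, though none of the 9 genes encodes a factor of those families. RefSeq promoter windows of 300 bases (GRCm38.p6) were at hand for 7 of the 9 genes, in 17 windows. Both strands were searched for GTAAACA (FOXO), CTTTGAA (TCF/LEF), GGGTGTG (KLF) and ACCGGAAGT (ETS), motifs that do not overlap each other in letters. Of 32851 windows of all genes, 3.65% held the FOXO, 5.14% the TCF/LEF, 7.95% the KLF and 1.1% the ETS letters. Of the 17 windows of the 9 genes, 2 held the KLF letters and 1 each held the FOXO, TCF/LEF and ETS letters, the FOXO match lying just after the start in the same Tcf7 window. The stretches below carry the matches upstream of a start in Tcf7, Satb1 and Foxp1, all on the minus strand, with the matched letters in capitals.
Tcf7: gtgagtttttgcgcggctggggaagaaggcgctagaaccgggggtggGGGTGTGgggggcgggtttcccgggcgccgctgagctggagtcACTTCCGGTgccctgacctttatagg
Satb1: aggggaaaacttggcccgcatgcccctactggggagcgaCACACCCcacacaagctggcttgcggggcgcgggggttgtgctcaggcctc
Foxp1: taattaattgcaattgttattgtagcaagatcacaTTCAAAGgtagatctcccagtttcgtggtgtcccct
The Tcf7 stretch (chr11:52282596-52282711) ends at position -1 of a start inside the gene, overlaps no annotated exon, and holds a KLF match and an ETS match on the opposite strand. The Satb1 stretch (chr17:51833291-51833380) ends directly before the annotated gene and holds a KLF match on the opposite strand. The Foxp1 stretch (chr6:99266685-99266755) covers positions -240 to -170 of a start inside the gene and holds a TCF/LEF match on the opposite strand. These matches describe letters in a window and are not evidence of binding.

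Levels are given as UMIs per 1000000 UMIs of the pooled cells of a class (CPM), and are compared between classes and libraries within a gene, not between genes. Each gene had its own distribution over the lymphoid classes, shown in the plot of levels by class. Tcf7 was highest in thymocyte-like cells (T lineage cells with Rag1, Rag2, Ptcra, Dntt or Arpp21), at 569, 649, 706 and 676 CPM in the KO infarct, Het infarct, KO sham and Het sham libraries. Next came CD8 T cells and the remaining T cells (CD3+ cells that met none of the other T class rules, with a Cd4 UMI in 41.3% of KO infarct and 52.2% of Het infarct cells), whose Tcf7 ranges of 239 to 488 CPM and 119.9 to 483 CPM overlapped. T cells with NK genes followed at 88.5 to 251.5 CPM and NK cells at 47.7 to 163 CPM, also overlapping, whereas the B cell classes with Vpreb3 UMIs or without them stayed between 4.4 and 29.2 CPM. Lef1 and Satb1, the other T lineage factors, were higher in the remaining T cells than in thymocyte-like cells in the Het infarct, KO sham and Het sham libraries but not in the KO infarct library: Satb1 ran from 232 to 746 CPM in the remaining T cells and from 493 to 711 CPM in CD8 T cells, against 315 to 501 CPM in thymocyte-like cells.

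Bach2 was highest in early B cells, and so was Foxp1 except in the Het sham library, where Vpreb3+ B cells stood higher. Early B cells (Igll1, Vpreb1, Rag1, Rag2 or Dntt) had 779.6, 578, 910.5 and 540.3 CPM of Foxp1 and 259.9, 257, 492 and 199.6 CPM of Bach2 in the KO infarct, Het infarct, KO sham and Het sham libraries. Vpreb3+ B cells followed at 521 to 599.5 CPM of Foxp1, then Vpreb3- B cells at 348 to 427 CPM, with no overlap between these last B classes, while early B cells overlapped Vpreb3+ B cells. Ccr7 was shared between the lineages, at 400.1 to 442 CPM in Vpreb3+ B cells, 261 to 342 CPM in Vpreb3- B cells and 274 to 425 CPM in CD8 T cells. Il7r was low in B cells past the early stage, at no more than 7.22 CPM, and highest in gamma-delta or type 17 T cells, at 633, 556, 579 and 324 CPM in the same library order, in 29, 42, 19 and 8 cells. Klf2 and S1pr1 were low in thymocyte-like cells, at 14.0 to 32.2 CPM and 2.84 to 4.93 CPM, and higher in all T and B classes of 20 or more cells per library past that stage except gamma-delta or type 17 T cells. Some of the genes were not confined to lymphocytes. Macrophages without a CD3 UMI had 131.2 to 162.5 CPM of Foxp1 and 32.0 to 41.6 CPM of S1pr1. The remaining T cells of the KO infarct library, at 140.3 and 38.3 CPM, lay within these ranges. Neutrophils had 172.4 to 269.2 CPM of Klf2.

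**Figure D1:**
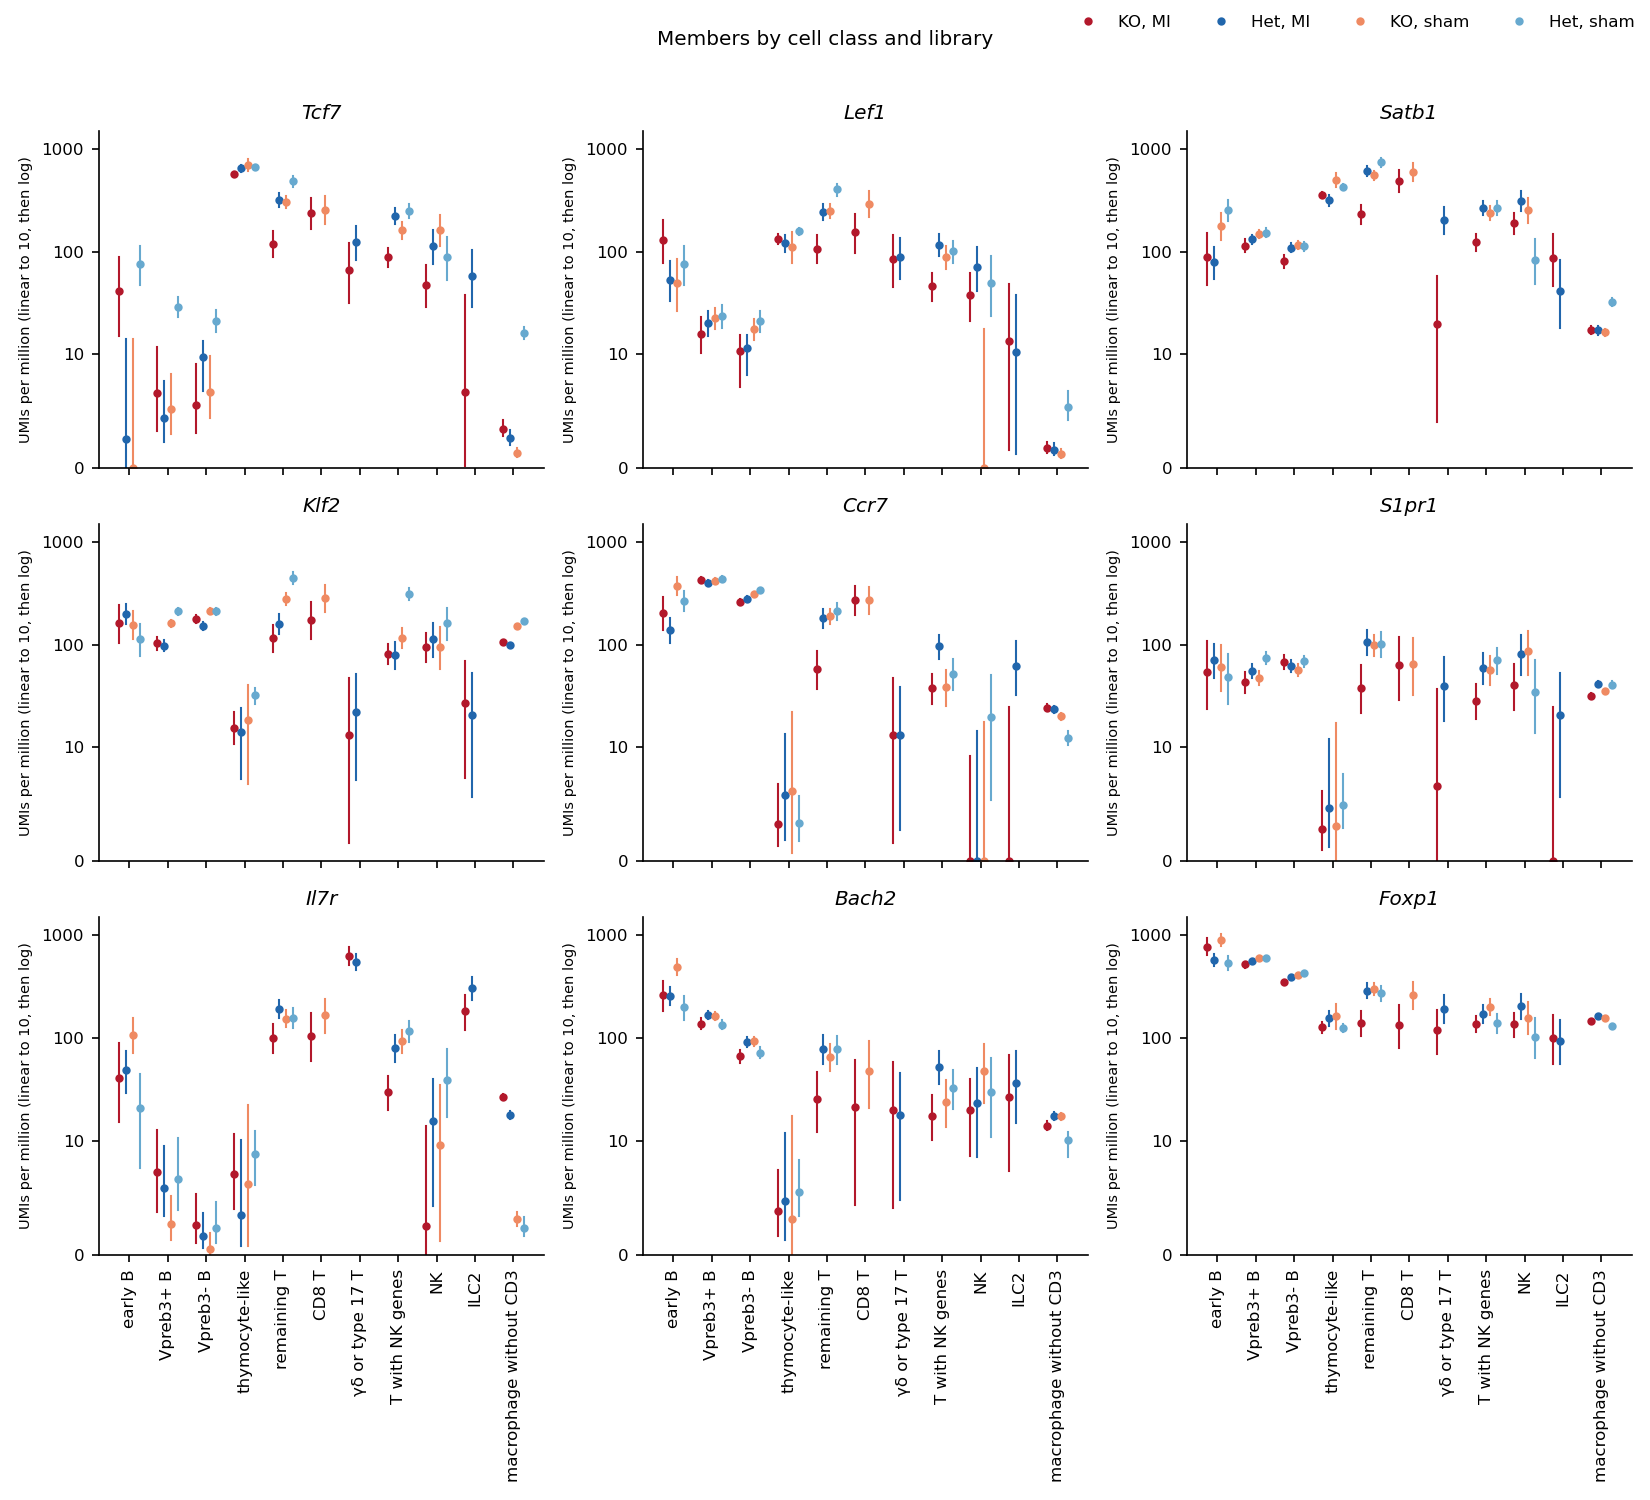
Level of each of the 9 genes (CPM, axis linear up to 10 and logarithmic above) in each lymphoid class, 1 point per library with at least 20 cells and its 95% counting interval. Tcf7 is highest in thymocyte-like cells, Bach2 in early B cells, and Foxp1 in early B cells or, in the Het sham library, Vpreb3+ B cells. The KO infarct library (KO, MI) is the lowest of the 4 in the remaining T cells for all 9 genes.

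The remaining T cells of the KO infarct library stood lowest for all 9 genes. This class held 63 cells in the KO infarct, 67 in the Het infarct, 103 in the KO sham and 78 in the Het sham library, at median depths of 5278, 5335, 5531 and 5020 UMIs per cell. A ratio between 2 libraries is called here when it is at least 1.5-fold and its 95% counting interval excludes 1, for genes with at least 10 UMIs over both, which all 9 genes had. By this rule 8 of 9 genes were lower in KO infarct than in Het infarct cells, against 9.86% of all 3539 genes with at least 30 UMIs in the class. All shares of called genes here and below use this higher floor of 30 UMIs, which all 9 genes reach in this class. The median log2 ratio of the 9 was -1.39, beside -0.03 over all genes tested.

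Among the transcription factors, Tcf7 had 119.9 CPM in KO infarct cells and 317 in Het infarct cells, with 308 in KO sham and 483 in Het sham cells. The KO infarct library was lowest and the log2 ratio of KO infarct to Het infarct was -1.41 (95% counting interval -1.91 to -0.93). Lef1, its relative, had 107 CPM in KO infarct and 243 in Het infarct cells, with 249.5 in KO sham and 404 in Het sham cells, a log2 ratio of -1.18 (-1.72 to -0.66). For both genes the Het sham library stood at the top, the KO infarct library at the bottom and the other pair close together. Satb1 had 232 CPM in KO infarct and 607 in Het infarct cells, with 555 in KO sham and 746 in Het sham cells, a log2 ratio of -1.39 (-1.74 to -1.04). Foxp1 had 140.3 CPM in KO infarct and 289 in Het infarct cells, with 299.6 in KO sham and 272 in Het sham cells, a log2 ratio of -1.04 (-1.52 to -0.59). For Foxp1 the other 3 libraries lay close together and the KO infarct library alone stood apart. Bach2, which had the fewest UMIs of the 9 in this class, had 25.5 CPM from 10 UMIs in KO infarct and 78.4 from 39 in Het infarct cells, with 65.5 in KO sham and 77.8 in Het sham cells, a log2 ratio of -1.62 (-2.79 to -0.59). Its wide interval reflects these few molecules.

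The trafficking and survival receptors showed the same order between the infarct libraries. Ccr7 had 58.7 CPM in KO infarct and 181 in Het infarct cells, with 189.5 in KO sham and 213 in Het sham cells, a log2 ratio of -1.62 (-2.35 to -0.95). S1pr1 had 38.3 CPM in KO infarct and 106 in Het infarct cells, with 98.9 in KO sham and 102 in Het sham cells, a log2 ratio of -1.48 (-2.41 to -0.63). As with Foxp1, the Het infarct and both sham libraries were alike for these receptors. Il7r had 99.5 CPM in KO infarct and 193 in Het infarct cells, with 155 in KO sham and 157 in Het sham cells, a log2 ratio of -0.96 (-1.53 to -0.40). Klf2, the factor upstream of S1pr1, was the exception: it had 117 CPM in KO infarct and 161 in Het infarct cells, a log2 ratio of -0.45 that was not called, with 280.1 in KO sham and 448 in Het sham cells.

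**Figure D2:**
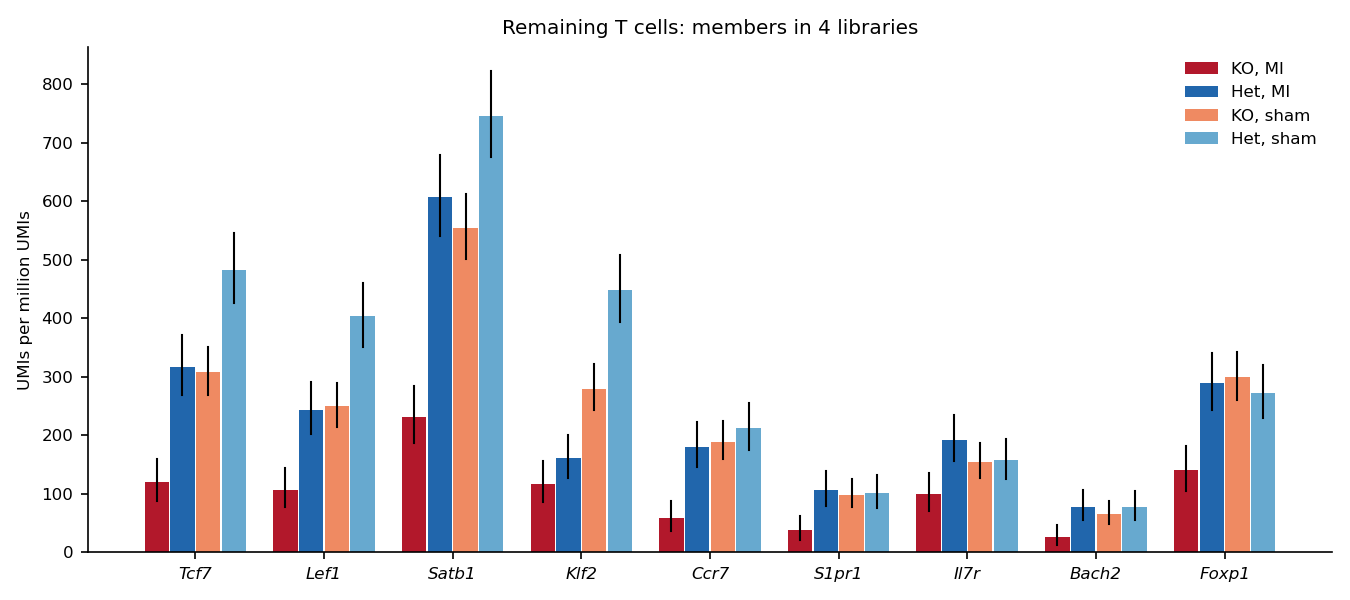
Level of each of the 9 genes (CPM) in the remaining T cells of each library, with 95% counting intervals. The KO infarct library is the lowest of the 4 for all 9 genes, and the intervals of KO infarct and Het infarct cells are apart for 8 genes and overlap for Klf2.

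Against its own sham library, KO infarct was lower for all 9 genes, with a median log2 ratio of -1.26, where 8.05% of all genes were lower. Over all cells of the class, the log2 ratios ran from -1.69 for Ccr7 to -0.64 for Il7r. Without cells that held 3 or more UMIs of the type 2 innate lymphoid genes described below, 6 of 9 genes were lower, with a median of -0.76. The share of all genes lower was not counted again there. In the heterozygous libraries, infarct was lower than sham for Klf2 (log2 ratio -1.48), Lef1 (-0.73) and Tcf7 (-0.61), 3 of 9 genes against 6.58% of all genes. KO sham was lower than Het sham for Lef1 (-0.69), Klf2 (-0.68) and Tcf7 (-0.65), 3 of 9 genes against 5.69% of all genes. These 4 comparisons share libraries, so their values are not independent of one another.

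The same picture held by cell. Tcf7 UMIs were found in 31.7% of KO infarct and 68.7% of Het infarct remaining T cells, with 66.99% in KO sham and 82.1% in Het sham cells. At an equal depth of 1500 UMIs per cell the shares were 16.9%, 46.3%, 40.6% and 56.8% in the same order. Macrophages, which should lack Tcf7, held a Tcf7 UMI in 17.1% of KO infarct, 13.5% of Het infarct, 8.4% of KO sham and 29.0% of Het sham cells at median depths of 9806 to 11670 UMIs. At 1500 UMIs these macrophage shares came to 4.74%, 3.21%, 3.21% and 8.65%, well under the T cell shares. This macrophage class set no limit on CD3 UMIs, so it can hold doublets with T cells and does not measure free RNA alone. Its Tcf7 level was 18.8 to 98.9 CPM, against 1.35 to 16.2 CPM in macrophages without a CD3 UMI. Counting how many of the 9 genes a remaining T cell showed at 1500 UMIs gave a mean of 1.36 in KO infarct and 2.69 in Het infarct cells, with 2.64 in KO sham and 3.24 in Het sham cells. None of the 9 was seen in 39.0% of KO infarct and 14.9% of Het infarct cells, in 15.8% of KO sham and in 0 of 74 Het sham cells, which allows a share of up to 4.05%. In Vpreb3+ B cells the same mean was 1.74 in KO infarct and 1.89 in Het infarct cells.

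**Figure D3:**
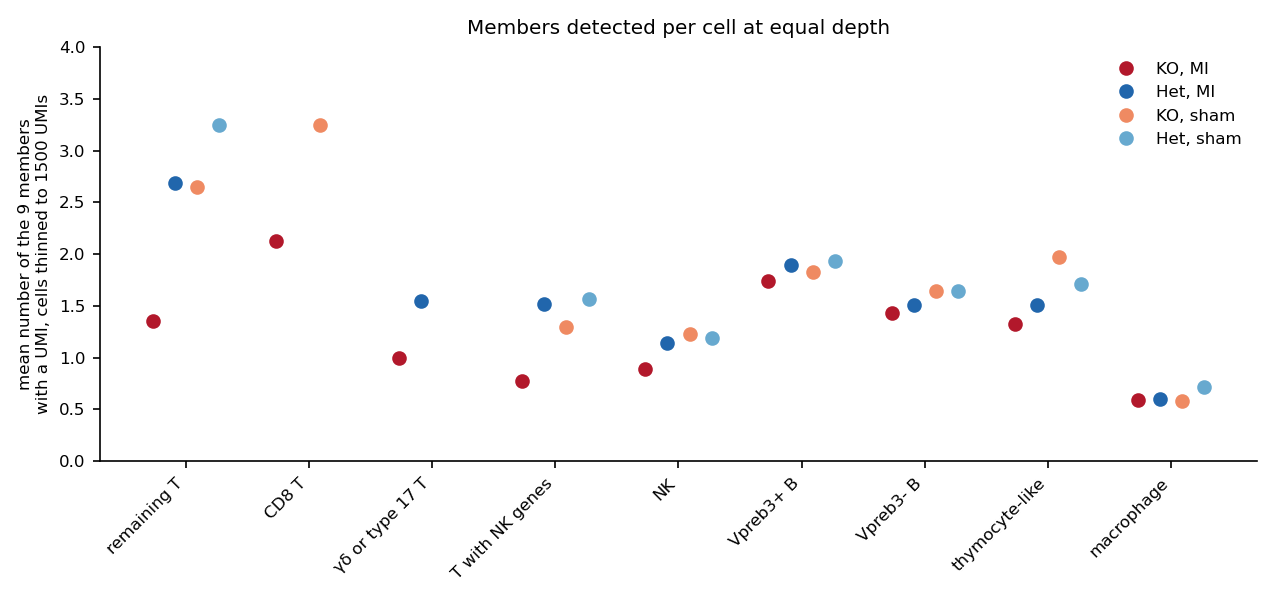
Number of the 9 genes detected per cell after thinning every cell to 1500 UMIs, by class and library (shallower cells left out). Remaining T cells average 1.36 genes in the KO infarct library and 2.69 in the Het infarct library, while Vpreb3+ B cells average 1.74 and 1.89.

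Other features of the remaining T cells differed between the infarct libraries as well. The type 2 innate lymphoid list (Gata3, Il1rl1, Il17rb, Il5, Il13 and Areg) summed to 1635 CPM in KO infarct and 1240 CPM in Het infarct cells, with 534 in KO sham and 98.2 in Het sham cells. Without the cells that held 3 or more UMIs of that list, 7 of 9 genes were still lower in KO infarct (41 cells) than in Het infarct (56 cells), but the median log2 ratio was -0.91, a fold closer to 1. The T cell receptor gene Trac was seen in 55.6% of KO infarct and 71.6% of Het infarct cells. Among cells with a Trac UMI (35 and 48 cells), 8 of 9 genes were lower in KO infarct, with a median log2 ratio of -1.34. The share of all genes lower was 9.86% in the whole class and was not counted again in these smaller sets of cells. Myeloid markers summed to 834 CPM in KO infarct and 687 CPM in Het infarct cells. The part of these features in the result was otherwise not tested. Fewer expressing cells and less RNA per cell were not told apart, since the share of cells with a UMI falls with either. The 4 mature T classes were also pooled with their mix held at that of the Het infarct library. The log2 ratios were then -1.47 for Bach2, -1.41 for S1pr1, -1.27 for Tcf7, -1.26 for Satb1 and -1.15 for Ccr7. They were smaller for Lef1 (-0.97, against -1.17 when cells were simply pooled), Foxp1 (-0.79) and Klf2 (-0.33). CD8 T cells entered this mix with 14 Het infarct cells, fewer than the 20 asked of a ratio. Il7r moved most: it came to -0.27 at the fixed mix, or -0.47 with the mix held at that of KO infarct, against -0.90 when cells were simply pooled. Gamma-delta or type 17 T cells, in which Il7r was highest, were 29 of 266 mature T cells in KO infarct and 42 of 204 in Het infarct.

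T cells with NK genes, CD3+ cells with at least 3 UMIs of Ncr1, Klrb1c, Klrd1, Eomes, Gzma and related genes, also had most of the 9 genes lower in the KO infarct library. In the 151 KO infarct cells 7 of 9 genes were lower than in the 81 Het infarct cells, against 8.03% of all genes, with a median log2 ratio of -1.33. Tcf7 had 88.5 CPM in KO infarct and 223 in Het infarct cells, with 162 in KO sham and 251.5 in Het sham cells, a log2 ratio of -1.33 (-1.74 to -0.93). Il7r had 29.5 CPM in KO infarct and 79.9 in Het infarct cells, with 92.8 in KO sham and 117 in Het sham cells, a log2 ratio of -1.44 (-2.16 to -0.74). The KO infarct library was again the lowest for both. Klf2 (81.4 CPM in KO infarct and 79.9 in Het infarct cells) and Foxp1 (137 and 173 CPM) were the genes not called. Against KO sham, 5 of 9 genes were lower in KO infarct (7.24% of all genes), led by Il7r at -1.65. Between Het infarct and Het sham, Klf2 was lower (5.95% of all genes) and Ccr7 was higher, at 96.8 against 51.8 CPM (5.72% of all genes). Tcf7 and Klf2 were lower in KO sham than in Het sham (6.17% of all genes). Trac was seen in 41.7% of KO infarct and 37.0% of Het infarct cells of this class and Tyrobp, a signalling adaptor of NK and myeloid cells, in 73.5% and 64.2%, so not every cell of the class is shown to be a T cell.

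**Figure D4:**
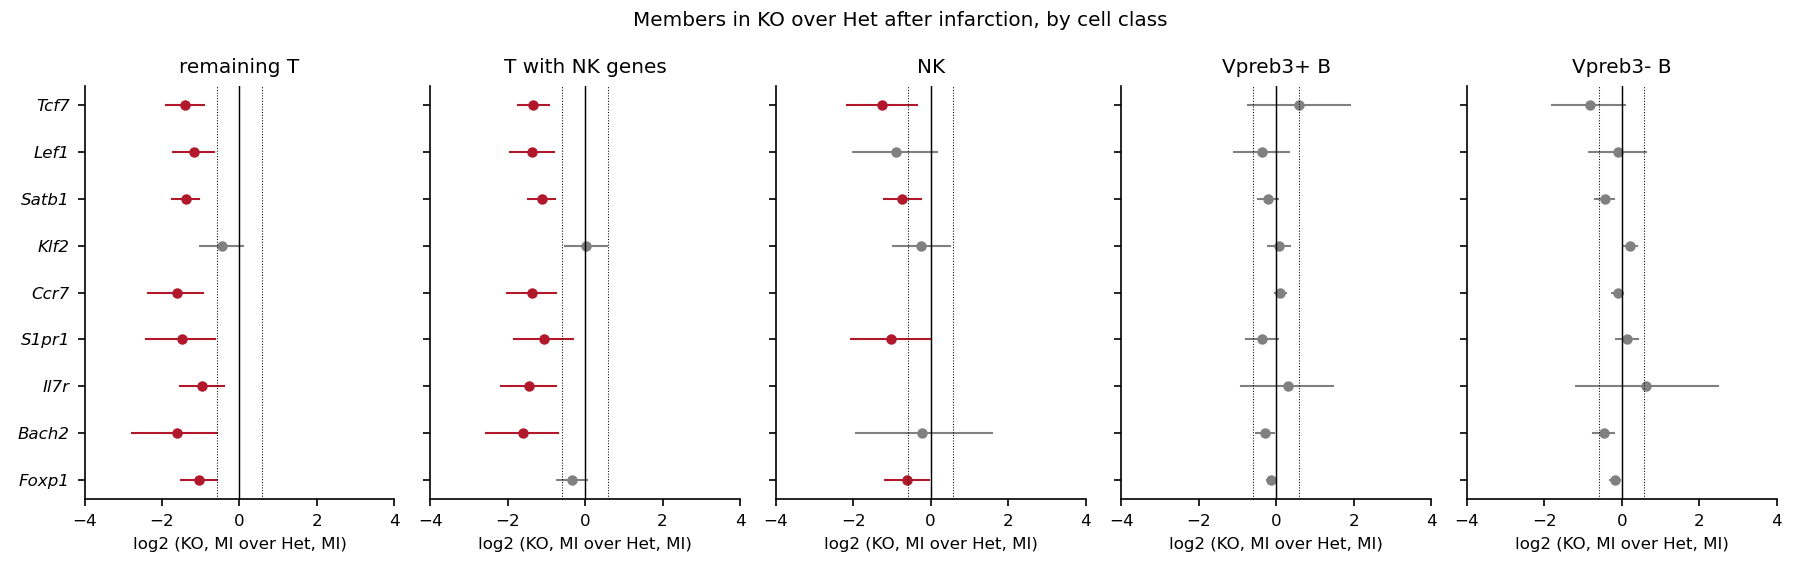
Log2 ratio of KO infarct over Het infarct for each of the 9 genes with enough UMIs in 5 lymphoid classes, with 95% counting intervals, called ratios in red and 1.5-fold marked by dotted lines. Red points gather in the remaining T cells (8 of 9 genes) and T cells with NK genes (7 of 9), 4 stand in NK cells, and none stands in the Vpreb3+ and Vpreb3- B cells.

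The smaller lymphoid classes gave fewer molecules. NK cells (79 KO infarct, 56 Het infarct, 35 KO sham and 22 Het sham cells) had 4 of the 7 genes with enough UMIs lower in KO infarct than in Het infarct, against 9.42% of all genes. These were, with KO infarct and then Het infarct levels, Tcf7 (47.7 and 113 CPM), Satb1 (188 and 312 CPM), S1pr1 (40.2 and 81.9 CPM) and Foxp1 (136 and 207 CPM). Ccr7 and Il7r were all but missing from NK cells, with 0 to 4 and 1 to 8 UMIs per library. Against KO sham, Tcf7 and S1pr1 were lower in KO infarct NK cells (7.96% of all genes), and Lef1 had 15 UMIs in KO infarct and 0 in KO sham cells. Satb1 and Foxp1 were higher in Het infarct than in Het sham NK cells (12.6% of all genes), and Tcf7 and Satb1 were higher in KO sham than in Het sham NK cells (8.78% of all genes), while Lef1 had 0 UMIs in KO sham and 10 in Het sham cells.

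CD8 T cells (23 KO infarct, 14 Het infarct, 20 KO sham and 18 Het sham cells) allowed a ratio only between the KO libraries, where Lef1 and Foxp1 were lower in KO infarct, 2 of 9 genes against 8.4% of all genes. Lef1 had 155 CPM in KO infarct and 292 in KO sham CD8 T cells. Ccr7 was nearly level, at 274.5 CPM in KO infarct and 274 in KO sham cells. Gamma-delta or type 17 T cells had 1 of 6 testable genes lower in KO infarct than in Het infarct, against 5.73% of all genes: Satb1, with 3 UMIs in 29 KO infarct cells and 46 UMIs in 42 Het infarct cells. Il7r in these cells was 633 CPM in KO infarct and 556 CPM in Het infarct and was not called. In type 2 innate lymphoid cells (25 KO infarct and 20 Het infarct cells) Tcf7, Ccr7 and Il7r were lower in KO infarct, 3 of 6 testable genes against 7.39% of all genes, though 2 of these 6 reach the 30 UMIs that the share asks for. Ccr7 rests there on 0 UMIs in KO infarct and 12 in Het infarct cells and Tcf7 on 1 and 11, and Il7r, at 182 CPM in KO infarct and 308 in Het infarct cells, came out higher in KO infarct under a looser gate (log2 ratio 0.29), though not called.

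In B cells, the largest lymphoid group, no gene was called between the infarct libraries past the early stage. In Vpreb3+ B cells (364 KO infarct and 419 Het infarct cells) 0 of 9 genes were lower in KO infarct, against 6.02% of all genes. In Vpreb3- B cells (403 and 424 cells) the count was also 0 of 9, against 5.8% of all genes. Foxp1 had 521 CPM in KO infarct and 567 in Het infarct Vpreb3+ B cells, with 599.5 in KO sham and 599.0 in Het sham cells, a log2 ratio of KO infarct to Het infarct of -0.12 (-0.24 to -0.00033). Ccr7 had 431 CPM in KO infarct and 400.1 in Het infarct Vpreb3+ B cells, with 422 in KO sham and 442 in Het sham cells, a log2 ratio of 0.11 (-0.03 to 0.24). The 4 libraries lay close together for both genes, each resting on 715 or more UMIs per library, and these intervals lie above those of the same genes in the remaining T cells.

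The calls in B cells that were made elsewhere fell mostly on genes that B cells barely express. In Vpreb3+ B cells Tcf7 and Klf2 were lower in Het infarct than in Het sham (2 of 9, 3.27% of all genes). Tcf7, S1pr1 and Il7r were lower in KO sham than in Het sham (3 of 9, 2.78% of all genes). Klf2 was lower in KO infarct than in KO sham (1 of 9, 5.44% of all genes). Il7r was higher in KO infarct than in KO sham (1 of 9, 1.77% of all genes). It had 7.22 CPM from 12 UMIs in KO infarct and 2.73 CPM from 9 UMIs in KO sham, fewer than the 30 UMIs that the share asks for. In Vpreb3- B cells Tcf7 and Lef1 were lower in Het infarct than in Het sham (2 of 9, 2.9% of all genes), Tcf7 was lower in KO sham than in Het sham (1 of 9, 2.45% of all genes), and Lef1 was lower in KO infarct than in KO sham (1 of 9, 4.59% of all genes). Tcf7 in Vpreb3+ B cells was 6.62, 4.4, 5.15 and 29.2 CPM in the KO infarct, Het infarct, KO sham and Het sham libraries. Macrophages without a CD3 UMI were likewise highest in the Het sham library, at 3.45, 2.66, 1.35 and 16.2 CPM in the same library order, and thymocyte-like cells numbered 197 in KO infarct, 76 in Het infarct, 36 in KO sham and 299 in Het sham. Whether free RNA accounts for the B cell Tcf7 was not tested.

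Early B cells were few (42 KO infarct, 44 Het infarct, 55 KO sham and 50 Het sham cells). Satb1, Ccr7, Il7r and Bach2 were lower in KO infarct than in KO sham, 4 of 8 testable genes against 4.94% of all genes, and Il7r, Bach2 and Foxp1 were higher in KO sham than in Het sham, 3 of 9 against 7.44%. Lef1 had 19 UMIs in KO infarct and 13 in KO sham cells, a log2 ratio of 1.38, and Tcf7 had 0 UMIs in KO sham and 22 in Het sham cells. Between Het infarct and Het sham, Tcf7, Satb1 and Ccr7 were lower in Het infarct, 3 of 9 genes against 6.64% of all genes, and Klf2 was higher, 1 of 9 against 13.8%. Between the infarct libraries Lef1 was higher in KO infarct, 1 of 8 genes against 6.11% of all genes, on 19 UMIs in KO infarct and 21 in Het infarct cells. Bach2 was 259.9 CPM in KO infarct and 492 in KO sham cells. Foxp1 was 910.5 CPM in KO sham and 540.3 in Het sham cells. The KO sham library was thus the highest for both of these B lineage factors.

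Thymocyte-like cells, in which Tcf7 is strongest, likewise showed 0 of 9 genes lower in KO infarct (197 cells) than in Het infarct (76 cells), where 4.99% of all genes were lower. Tcf7 had 569 CPM in KO infarct and 649 in Het infarct thymocyte-like cells, and Satb1 359 and 315 CPM. Ccr7, S1pr1, Il7r and Bach2 stayed between 2.84 and 8.82 CPM in all 4 libraries of this class. Klf2, a gene that marks the exit of mature T cells from the thymus, was lower in Het infarct than in Het sham thymocyte-like cells (14.0 and 32.2 CPM, 1 of 9 genes, 4.59% of all genes).

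Klf2 was lower in infarct than in sham hearts in several classes, lymphoid and not. Its log2 ratio of Het infarct over Het sham, with the levels in that order, was -1.97 in T cells with NK genes (79.9 and 312 CPM), -1.48 in the remaining T cells (161 and 448 CPM), -1.20 in thymocyte-like cells and -1.11 in Vpreb3+ B cells (98.4 and 213 CPM). Macrophages without a CD3 UMI, which also express Klf2, gave -0.77 (100.1 and 170.2 CPM). Vpreb3- B cells gave -0.47 (153 and 213 CPM) and were not called. Pooled B cells gave -0.64 (134 and 208 CPM), but were not called under stricter gates (-0.56) or in cells with Xist and no Y-linked UMI (-0.26). Early B cells went the other way, at 0.82, but 1 cell held 46 of their 79 Klf2 UMIs in Het infarct, and without it the log2 ratio was 0.24. Between the knockout libraries, KO infarct over KO sham was called in the remaining T cells (-1.26, 117 and 280.1 CPM) and in Vpreb3+ B cells (-0.65, 104 and 162 CPM). T cells with NK genes, at 81.4 CPM in KO infarct and 117 CPM in KO sham, were not called, and whether the ratios differ between the genotypes was not tested.

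**Figure D5:**
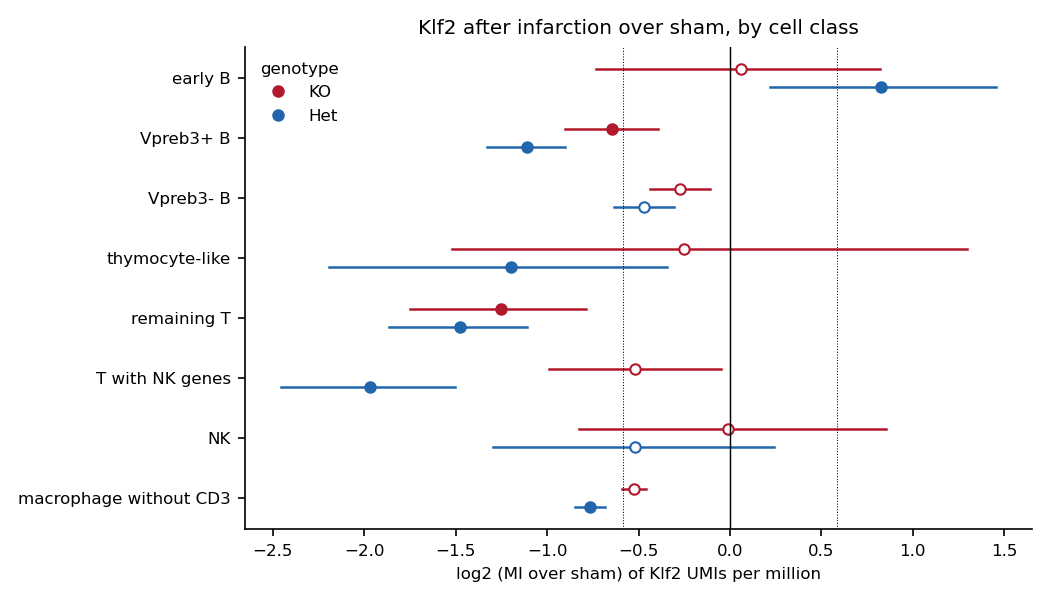
Log2 ratio of Klf2 in infarct over sham within each genotype, by cell class, with 95% counting intervals, filled points for called ratios and dotted lines at 1.5-fold. In heterozygous hearts the filled points below 0 run from -1.97 in T cells with NK genes to -0.77 in macrophages without CD3, and the early B cells, at 0.82, include 1 cell with 46 UMIs.

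Other genes of the same programme were read from lists chosen with the members. In the remaining T cells, 4 of 9 testable genes of the Foxo1 and homing list were lower in KO infarct than in Het infarct, with a median log2 ratio of -0.69, where 9.86% of all genes were lower. With KO infarct and then Het infarct levels, they included Klf3, a relative of Klf2 (68.9 and 225 CPM, log2 ratio -1.71), Foxo1, a factor that drives Il7r and Klf2 (56.1 and 108 CPM, -0.95), and the integrin gene Itga4 (143 and 231 CPM, -0.69). Of the naive identity list 6 of 10 were lower, with a median of -0.72. Among these, with levels in the same order, were Ets1 (482 and 836 CPM, -0.79), the T lineage factor Bcl11b (145 and 259 CPM, -0.83), Igfbp4 (53.6 and 149 CPM, -1.47) and Id3 (17.9 and 58.3 CPM, -1.71). In the IL-7 signalling list 1 of 8 was lower, a share near that of all genes: the survival gene Bcl2 (38.3 CPM in KO infarct and 86.4 in Het infarct cells, -1.17), and in the retention list 0 of 5 was called, Cd69, Gnai2 and Coro1a included.

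Of the effector list, 3 of 9 genes were higher and 1 was lower in KO infarct, where 8.25% of all genes were higher. Its median log2 ratio was 1.08, and 0.22 over the 7 genes with at least 30 UMIs. Ccl5, a chemokine of effector T and NK cells, had 1829 CPM in KO infarct and 303 in Het infarct remaining T cells, with 132 in KO sham and 66.7 in Het sham cells, and was seen in 25.4% of KO infarct and 14.9% of Het infarct cells. Nkg7, a cytotoxic granule gene, had 359.7 CPM in KO infarct and 120.5 in Het infarct cells. Ifng, which encodes interferon gamma, had 32 UMIs in KO infarct and 1 UMI in Het infarct cells, a log2 ratio of 5.34 (2.76 to 10.69). How many cells held these Ifng UMIs was not counted, so a few cells could carry most of them. Zeb2, a factor of terminal effector CD8 T cells, was lower, at 40.8 CPM in KO infarct and 84.4 in Het infarct cells. In T cells with NK genes 3 of 9 homing, 3 of 10 naive identity and 2 of 8 IL-7 genes were lower (8.03% of all genes lower) and 2 of 9 effector genes were higher in KO infarct (6.05% of all genes higher). In pooled B cells 1 of 10 homing, 0 of 9 naive identity and 0 of 7 B maturation genes were lower in KO infarct (5.03% of all genes).

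Across the 34 points given by a class and a library with at least 20 cells, the likeness of the 9 genes is described by Pearson's r of log2(CPM + 10) with no test, since the points share libraries and cell types. Bach2 and Foxp1 ran together (r = 0.89), as did Klf2 and S1pr1 (0.86), Ccr7 and Bach2 (0.78), and Tcf7 and Lef1 (0.72), while Tcf7 and Bach2 ran against each other (-0.69). Il7r followed none of the others closely, with r between -0.31 for Foxp1 and 0.44 for Lef1. Among 5151 genes, those with the pattern most like each member were Lck (0.92) and Pde4d (0.89) for Tcf7, Nsg2 (0.84) and Fam78a (0.81) for Lef1, and Plcxd2 (0.81) and Nsg2 (0.75) for Satb1. They included Sema4b (0.91) for Foxp1 and were Pde4b (0.91) and Bcl10 (0.90) for Bach2, and Cd2 (0.83) and Ripor2 (0.82) for Klf2. For the receptors they were Traf5 (0.88) and Sh3bp5 (0.87) for Ccr7, Gimap6 (0.91) and Txnip (0.85) for S1pr1, and Tpt1 (0.79) and Icos (0.79) for Il7r.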

How the data were processed

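Single-cell libraries of live CD45+ heart cells were made with 10x 3' v3 chemistry, per the labels' protocols. The deposited values are UMI counts per gene and barcode. Cell Ranger 6.1.1 and Seurat 4 stand in the submitters' processing notes, with the mm10 build, whereas the file headers name Cell Ranger 4.0.0. Cells needed 500 UMIs, 200 genes and at most 10% mitochondrial UMIs. Lymphoid classes were gated on raw UMIs of marker genes that exclude the 9 genes, with myeloid markers under 0.5% of UMIs. Doublets were limited by the cross-lineage rule of at most 1 UMI of another lineage's markers, and Scrublet calls (scanpy 1.11.5) were removed as an alternative. UMIs were pooled per class and library and scaled to 1000000. Intervals at 95% are exact Poisson for levels, exact conditional binomial for ratios and Clopper-Pearson for shares (scipy 1.17.1), and cover counting error only. Ratios needed 20 cells in both libraries. With 1 library per group no test was run. Where a count of cells is 0, up to 3 cells would be allowed by counting error. The interval code was checked on simulated counts. TMM and median-of-ratios factors used edgeR 4.0.16.

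All 9 genes are named. Of each other list the text draws on the 2 genes with most UMIs and those called in 2 or more classes of KO infarct over Het infarct, and 1 homing gene and 1 gene of the likeness rule are not reported here. For likeness it names the 2 genes with highest r. The 9 genes, lists, motifs and printed stretches were chosen with earlier results of these data known.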

Additional observations from a re-analysis of the deposited data

Results flagged for a closer look

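In NK cells the difference between the genotypes ran in opposite directions in infarct and sham libraries for 2 of the 9 genes. The log2 ratio of Satb1 was -0.73 for KO infarct over Het infarct and 1.60 for KO sham over Het sham, and that of Tcf7 was -1.25 and 0.88. The difference between these ratios was not tested, and each library is a single sample. The sham ratios rest on 35 KO sham and 22 Het sham NK cells. The Het sham NK cells also stood apart in other genes. Mki67, a proliferation gene, was seen in 21.5% of KO infarct, 10.7% of Het infarct, 14.3% of KO sham and 54.5% of Het sham NK cells. The class II gene H2-Aa, which marks antigen-presenting cells, had 123, 499, 408 and 2594 CPM in the same library order. The part of these cells in the opposite directions was not tested.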

How the results depend on the processing

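The limits are 1 library per group, 63 to 103 remaining T cells per library, and a KO infarct pool of a single sex beside mixed pools. No paired analysis was possible because there is 1 library per group, and no replicate could be left out. Over all alternatives that gave a value, 7 to 9 of 9 genes were lower in the remaining T cells of KO infarct than of Het infarct (median log2 ratio -1.43 to -0.89), 6 to 9 than of KO sham, and 5 to 7 in T cells with NK genes of KO infarct than of Het infarct. The share of all genes lower was not counted again for the alternatives that changed the cells or the scaling. Cells with Xist and no Y-linked UMI gave no value for these Het infarct comparisons (9 and 10 Het infarct cells left). In those cells Klf2 in pooled B cells, Het infarct over Het sham, was -0.26, against -0.64. Klf2 there was not called under stricter gates (-0.56). Asking 1 UMI in each library instead of 30 over both moved the share of all genes lower in KO infarct remaining T cells to 4.68%. Thinning moved the Tcf7 share of remaining T cells to 16.9% in KO infarct, and to 46.3% (1500 UMIs) and 53.2% (3000 UMIs) in Het infarct. Signs turned for Klf2 in early B cells of Het infarct over Het sham (-0.13 with looser exclusion, -0.18 as a mean over cells), Il7r in type 2 innate lymphoid cells of KO infarct over Het infarct (0.29 with looser exclusion), Lef1 in early B cells of KO infarct over Het infarct (-0.022 as a mean over cells), and, in cells with Xist and no Y-linked UMI, Ccr7 in early B cells of KO infarct over KO sham (0.28) and Lef1 in Vpreb3- B cells of Het infarct over Het sham (0.13). The cause was not tested. Single-gene calls, counted over all classes, pooled ones included, were kept less often under some alternatives. As a mean over cells 78 of 106 were kept, with looser exclusion 90 of 106, and in cells with Xist and no Y-linked UMI 40 of 52. At most 5% mitochondrial UMIs kept 70 of 81, while at least 1000 UMIs per cell kept 106 of 106. Rescaling moved the centre of all genes by over 0.1 on the log2 scale in Vpreb3+ B cells of KO infarct over Het infarct (-0.11) and over KO sham (-0.12), in pooled B cells of KO infarct over Het infarct (-0.10) and, with median-of-ratios factors, in CD8 T cells of KO infarct over KO sham (-0.11). The Trac, type 2 innate lymphoid and CD3-free macrophage alternatives were added after seeing the data.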

Other observations

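Outside the lymphoid classes, Ccr7 was strongest in migratory dendritic cells (Fscn1, Ccl22, Il4i1 and Cacnb3), which use it to reach lymph nodes. It had 2442 CPM in KO infarct (46 cells) and 1788 CPM in Het infarct (23 cells), with 1982 CPM in KO sham (13 cells) and 204.5 CPM in Het sham (7 cells). Il7r, the receptor chain for IL-7, was seen in macrophages without a CD3 UMI, at 26.7 CPM in KO infarct and 17.8 CPM in Het infarct, against 3.12 CPM in KO sham and 2.36 CPM in Het sham. It was found in 11.3% of these KO infarct and 7.15% of Het infarct macrophages, against 2.57% in KO sham and 2.03% in Het sham. The log2 ratio of infarct over sham was 3.10 (95% counting interval 2.80 to 3.40) in the knockout and 2.92 (2.40 to 3.48) in the heterozygous libraries. Il7r in B cells past the early stage stayed at or under 7.22 CPM in all 4 libraries, and in neutrophils it ran from 2.075 to 13.96 CPM. In Vpreb3+ B cells it was likewise called higher in KO infarct than in KO sham, at 7.22 and 2.73 CPM. Whether free RNA or doublets account for the Il7r of these macrophages was not tested. Ccr7 in these macrophages was 23.6 CPM in Het infarct and 12.3 CPM in Het sham, a log2 ratio of 0.94, and 24.5 CPM in KO infarct and 20.1 CPM in KO sham, a log2 ratio of 0.29 that was not called.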
